A study of Mus musculus with 24 samples.

Results

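The nuclear genes for complexes III, IV and V of the mitochondrial respiratory chain were followed in 3 tissues of Atxn2 Knock-In and wild type mice. The members were all genes whose symbol begins with Uqcr, Cox4i, Cox5, Cox6, Cox7, Cox8 or Atp5, together with Cyc1, and that had a probe set assigned to 1 gene. The rule uses names and no measured value. It gave 42 genes on 67 probe sets, out of 17097 named genes on 28898 such probe sets. Of these genes, 8 belong to complex III, 17 to complex IV and 17 to complex V. On average over all arrays, 57 of the 67 probe sets and the brightest probe set of 38 of the 42 genes lay above the median of all probe sets, a level of 4.57 on the log2 scale.

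Complex III takes electrons from ubiquinol and hands them to cytochrome c, complex IV (cytochrome c oxidase) passes them on to oxygen, and complex V (ATP synthase) uses the proton gradient that results to make ATP. Several subunits of complex IV come as isoforms from separate genes: Cox6a1, Cox7a2 and Cox8a are found in liver and most other tissues, Cox6a2, Cox7a1 and Cox8b are known from heart and skeletal muscle, Cox6b2, Cox7b2 and Cox8c from testis, and Cox4i2 from lung. The c subunit of ATP synthase, which forms its rotating ring, is made from Atp5g1, Atp5g2 and Atp5g3, whose mature proteins are identical.

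The Knock-In mice were homozygous for an expanded repeat of 42 CAG units in the endogenous Atxn2 gene, under its own promoter, as a model of spinocerebellar ataxia type 2, and the controls were wild type littermates on the same C57BL/6 background. At an age of 18 months, RNA from the whole cerebellum, the whole brainstem and the liver was put on 24 Affymetrix arrays, 4 per tissue and genotype. Levels are given as RMA values on the log2 scale, so that a difference of 1 is a 2-fold change of the signal. In whole tissue, fewer cells of a type and less RNA per cell cannot be told apart.

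Median array levels were 4.42 to 4.62 in the brain regions and 4.13 to 4.25 in liver. Arrays of a group correlated with r of at least 0.992 in brain, of at least 0.986 in Knock-In liver and of at least 0.954 in wild type liver, where replicate 1 stood furthest from its group. The tissues matched their labels: 6 hepatocyte markers averaged 11.9 to 12.2 in liver and 2.91 to 3.22 in the brain regions, and 5 neuron markers averaged 11 to 11.7 in the brain regions and 4.02 to 4.43 in liver. For Gapdh, the control at the 3′ end exceeded that at the 5′ end by 0.12 to 0.31 in liver, while the brain regions stood at -0.16 to 0.08. RNA quality by this measure moved with tissue, and its part in the tissue differences was not tested.

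Promoter sequences from RefSeq on build GRCm38.p6 were listed for 31 of the 42 genes. They are shown for 5 members as the 250 bases that end at the annotated start: Cox6a1 and Atp5h as widely used subunits, Cox8a and Cox8b as an isoform pair, and Cox7b2 as a testis isoform whose signal was highest in cerebellum. Capitals mark matches on either strand to the letters searched. For NRF1, a factor known for nuclear genes of the respiratory chain, these were GCGCANGCG. For GABPA, also called NRF-2 and known for the same genes, they were CCGGAAG. For YY1, a widely expressed regulator, they were AANATGGCG, and the last motif was the TATA box, TATAAA. A match is a description of the letters and not a site.
Cox6a1, chr5:115348959-115349208, minus strand: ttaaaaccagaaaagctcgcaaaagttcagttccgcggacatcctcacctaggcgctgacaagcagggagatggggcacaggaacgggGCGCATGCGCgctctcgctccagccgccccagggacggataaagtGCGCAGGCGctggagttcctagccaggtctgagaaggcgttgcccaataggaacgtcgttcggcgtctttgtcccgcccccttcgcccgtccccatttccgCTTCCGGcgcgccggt
Atp5h, chr11:115419920-115420169, minus strand: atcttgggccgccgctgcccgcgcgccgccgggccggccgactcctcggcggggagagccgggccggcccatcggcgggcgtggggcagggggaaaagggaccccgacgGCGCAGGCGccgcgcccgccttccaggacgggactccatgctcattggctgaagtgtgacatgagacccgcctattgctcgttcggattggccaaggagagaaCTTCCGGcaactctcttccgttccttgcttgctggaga
Cox8a, chr19:7217617-7217866, minus strand: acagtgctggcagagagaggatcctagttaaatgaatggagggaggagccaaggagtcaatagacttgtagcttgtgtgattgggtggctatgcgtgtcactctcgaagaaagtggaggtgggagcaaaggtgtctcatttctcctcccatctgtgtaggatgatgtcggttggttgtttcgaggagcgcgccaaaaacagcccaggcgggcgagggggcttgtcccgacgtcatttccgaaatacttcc
Cox8b, chr7:140900447-140900696, minus strand: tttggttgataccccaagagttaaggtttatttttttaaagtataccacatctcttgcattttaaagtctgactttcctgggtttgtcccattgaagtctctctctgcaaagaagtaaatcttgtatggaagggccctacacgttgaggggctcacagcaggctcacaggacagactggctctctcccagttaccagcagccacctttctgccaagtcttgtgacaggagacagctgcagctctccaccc
Cox7b2, chr5:71548206-71548455, minus strand: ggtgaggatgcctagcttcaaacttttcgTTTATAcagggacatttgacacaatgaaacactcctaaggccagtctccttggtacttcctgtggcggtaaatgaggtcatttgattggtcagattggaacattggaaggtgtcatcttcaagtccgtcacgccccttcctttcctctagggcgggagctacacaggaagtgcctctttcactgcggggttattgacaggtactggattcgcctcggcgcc

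Within 250 bases before to 50 bases after the start, 10 of the 31 member genes (32.3%) held the NRF1 letters, against 7.03% of all 27025 genes listed. The GABPA letters were also found in 10 members (32.3%), against 9.93% of all genes. The YY1 letters were found in 3 members (9.68%), against 2.76%, and TATAAA in 4 members (12.9%), against 15.7%. Cox6a1, Atp5h, Atp5k, Atp5l and Uqcr11 held both the NRF1 and the GABPA letters, while Cox8b and Cox7b2 held neither and were among the 4 members with TATAAA, in Cox8b outside the bases printed. In the bases printed, Cox8a and Cox8b held none of the 4 motifs, and the GABPA letters of Cox8a lie after its start.

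In wild type mice, complex III stood apart from complexes IV and V in how the brain regions compared with liver. By brightest probe set, 5 of the 8 complex III genes were called lower and 1 higher in cerebellum, and 3 lower and 3 higher in brainstem. For complex IV, 10 and 15 of 17 genes were called higher and 0 lower by limma on the deposited scale, and for complex V 8 and 12 of 17 were called higher and 5 and 0 lower. Of the 67 probe sets, 47 were called in cerebellum against liver (33 higher, 14 lower), where limma called 81.8% of all probe sets at an adjusted p under 0.05 (44.4% higher, 37.3% lower). In brainstem against liver 55 were called (50 higher, 5 lower), against 80.8% of all probe sets (46.5% higher, 34.3% lower). Both comparisons share the liver arrays. At a log2 difference of at least 1 the counts were 6 and 10, where 47% and 45.8% of all probe sets passed.

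For complex III, the median over the 8 genes was -0.32 in cerebellum minus liver and -0.11 in brainstem minus liver, beside medians over all probe sets of 0.08 and 0.16. For complex IV the medians over 17 genes were 0.30 and 0.58, and for complex V over 17 genes 0.13 and 0.42. With all probe sets in place of the brightest, the complex III medians were -0.098 and 0.029, so that its brainstem value turned sign. Relative to the median of all probe sets, complex III stood at -0.40 and -0.28, complex IV at 0.22 and 0.42, and complex V at 0.048 and 0.26. With quantile normalization over all arrays these distances were -0.29 and -0.31, 0.47 and 0.59, and 0.26 and 0.35. Centring each array on its median leaves the distances as they are by construction, but it moved the median of all probe sets to -0.24 in both comparisons and the medians of complex IV (-0.015) and complex V (-0.19) below 0 in cerebellum minus liver. Under that centring the calls split into 12 higher and 28 lower in cerebellum minus liver and 27 higher and 18 lower in brainstem minus liver, and with quantile normalization over all arrays into 44 higher and 12 lower in the latter.

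**Figure D1:**
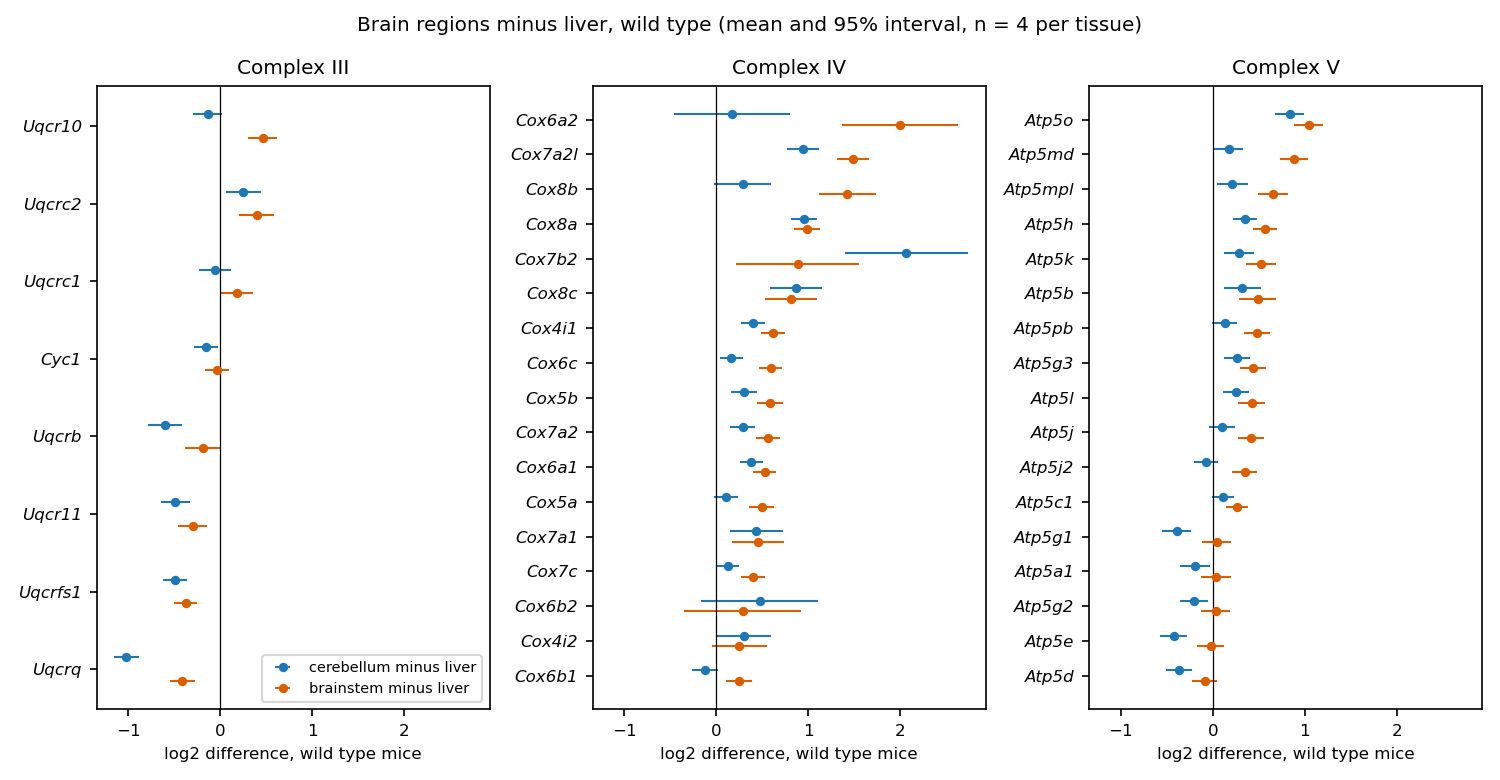
Log2 difference between each brain region and liver in wild type mice for the brightest probe set of the 42 genes, in a panel per complex; points are means of 4 against 4 arrays and bars are 95% intervals from limma. Complex III genes run from -1.02 for Uqcrq in cerebellum to 0.46 for Uqcr10 in brainstem, and the 17 complex IV genes lie right of 0 in brainstem on the deposited scale shown; centring each array on its median moves the points to the left.

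Among complex III genes, Uqcrq, a small subunit of the ubiquinol-binding part, differed most. It read 10.78, 10.69, 10.71 and 10.73 in wild type cerebellum. The brainstem arrays read 11.35, 11.34, 11.37 and 11.28, and the liver arrays 11.77, 11.83, 11.70 and 11.68. The 3 tissues did not overlap, with liver highest and cerebellum lowest. The difference to liver was -1.02 (SE 0.064) in cerebellum and -0.41 in brainstem, with limma's adjusted p = 4.17e-13 and 2.91e-06.
Uqcrfs1, the Rieske iron-sulfur protein that carries electrons within the complex, differed from liver by -0.49 in cerebellum and -0.38 in brainstem (adjusted p = 1.42e-07 and 7.16e-06 by limma), but among the Knock-In arrays the brainstem difference was -0.12 and not called (adjusted p = 0.0803). Uqcrb, another small subunit, differed by -0.60 in cerebellum (adjusted p = 2.05e-06, limma) and was not called in brainstem, where the groups overlapped. The core proteins stood above liver in brainstem on the deposited scale, Uqcrc2 by 0.40 (adjusted p = 0.000384, limma) and Uqcrc1 by 0.18 (adjusted p = 0.0493, limma). The call of Uqcrc1 was lost without liver replicate 2, 3 or 4 or brainstem replicate 1 or 4, with differences of 0.12 to 0.20, and its sign turned under both other scalings. Uqcr10, a small subunit, was higher in brainstem by 0.46 (adjusted p = 5.45e-06, limma) and was not called in cerebellum. Under centring Uqcrc2 stood at -0.014 and Uqcr10 at 0.053, neither called.

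Complex IV genes known from most tissues gave strong signal on all arrays. Cox6a1, the widespread form of a nuclear regulatory subunit, read 12.88 to 13.06 in wild type cerebellum, 13.10 to 13.15 in brainstem and 12.56 to 12.62 in liver. Cox4i1, another regulatory subunit, read 12.33 to 12.40, 12.55 to 12.62 and 11.86 to 12.03. On the deposited scale neither gene had overlapping tissues, and liver was lowest for both.

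Cox8a showed a step of about 1 between brain and liver on the deposited scale. Its level was 11.74, 11.66, 11.59 and 11.65 in wild type cerebellum. The brainstem arrays read 11.62, 11.69, 11.79 and 11.68, and the liver arrays 10.74, 10.80, 10.71 and 10.56. All 8 brain arrays lay above all liver arrays, while the brain regions overlapped. The difference to liver was 0.95 in cerebellum and 0.99 in brainstem (SE 0.068 each, adjusted p = 6.09e-12 and 3.21e-12 by limma).
Cox7a2l, known for joining complexes III and IV into supercomplexes, read 10.21, 10.22, 10.26 and 10.38 in cerebellum. The brainstem arrays read 10.78, 10.81, 10.90 and 10.73, and the liver arrays 9.39, 9.32, 9.23 and 9.34. The 3 tissues were separate, in the order brainstem, cerebellum, liver. Its differences to liver were 0.94 and 1.48 (adjusted p = 3.57e-10 and 7.18e-14, limma), and its 3 probe sets agreed in direction.

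Of the isoforms known from muscle and testis, Cox6a2 and Cox8c averaged below the median of all probe sets in most groups. Cox8b and Cox7b2 averaged below that median in liver and above it in cerebellum, and Cox6b2 and Cox7a1 above it in every group. Cox8b read 5.72, 5.94, 6.21 and 5.91 in wild type brainstem, 4.72, 4.65, 5.09 and 4.77 in cerebellum, and 4.45, 4.52, 4.77 and 4.34 in liver. Brainstem lay above both other tissues, which overlapped each other. Among the Knock-In arrays Cox8b was called higher in cerebellum than in liver, by 0.65 with overlap (adjusted p = 0.000398, limma). Brainstem exceeded liver by 1.42 (adjusted p = 6.68e-09) and cerebellum by 1.14, a coded difference of cerebellum minus brainstem of -1.14 (SE 0.15, adjusted p = 9.82e-07, limma).
Cox6a2 read 4.59, 5.24, 6.16 and 6.04 in wild type brainstem, 3.58, 3.61, 3.88 and 3.65 in cerebellum, and 3.81, 3.64, 3.56 and 3.05 in liver. It was raised in brainstem alone among these tissues, where the spread between arrays was also widest, with an SD of 0.73. Brainstem minus liver was 1.99 (SE 0.30, adjusted p = 2.32e-06) and cerebellum minus brainstem -1.83 (adjusted p = 2.33e-05, limma). In Knock-In brainstem Cox6a2 read 4.75, 4.27, 4.39 and 5.94.
The 8 skeletal and heart muscle markers measured averaged 3.42 to 3.76 in wild type brainstem, 3.36 to 3.64 in cerebellum and 3.82 to 4.65 in liver, and their part in the Cox6a2 signal was not tested. Between the wild type brainstem arrays, 4 brainstem neuron markers averaged 9.14, 8.97, 7.99 and 8.07 in the same order of arrays, highest where Cox6a2 was lowest. In Knock-In brainstem they averaged 8.76, 8.32, 9.06 and 8.66, lowest on the array where Cox6a2 was also lowest. The part of these markers was not tested.

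Cox7b2, a testis isoform, was measured highest in cerebellum. It read 5.92, 5.37, 5.78 and 5.10 in wild type cerebellum. The brainstem arrays read 4.84, 4.11, 4.75 and 3.74, and the liver arrays 3.40, 3.52, 3.58 and 3.41. The tissues did not overlap, with cerebellum highest. Cerebellum exceeded liver by 2.06 (SE 0.32, adjusted p = 3.42e-06) and brainstem by 1.18 (adjusted p = 0.00405, limma). Brainstem minus liver was 0.88 with an adjusted p of 0.0159 in limma that was lost without brainstem wild type replicate 1 (0.72, adjusted p = 0.061) or replicate 3 (0.75, adjusted p = 0.0539) and under centring (0.47, adjusted p = 0.166).
The 4 testis germ cell markers averaged 3.51 to 3.73 in wild type cerebellum and 4.01 to 4.97 in liver. Since liver holds neither muscle fibres nor germ cells, signal of this size can be background, and no expression is read from the liver values of Cox7b2, Cox8b and Cox6a2. The same holds for the brainstem values of Cox7b2 and the cerebellum values of Cox8b and Cox6a2. Where such a value is one side of a difference, the difference is of measured signal and may understate the difference in RNA. Cox6b2 was not called between the wild type tissues: 6.78 to 7.41 in cerebellum, 6.56 to 7.21 in brainstem, and 7.55, 7.05, 6.49 and 5.27 in liver, with overlap of all tissues. Among the Knock-In arrays it was called against liver, at 1.27 in cerebellum and 1.01 in brainstem (adjusted p = 0.000633 and 0.00468, limma). Cox4i2 (2.73 to 3.44 over the wild type arrays) stayed at the low end of the scale in all 3 tissues. Cox8c averaged 4.12, 4.06 and 3.25 in wild type cerebellum, brainstem and liver, levels that can be background. It was called above liver by 0.87 and 0.81 (adjusted p = 3.96e-06 and 1.03e-05, limma). Cox7a1 averaged 6.04, 6.05 and 5.60, called above liver by 0.43 and 0.45 (adjusted p = 0.00611 and 0.00476, limma). Among the Knock-In arrays Cox7a1 was not called in brainstem (adjusted p = 0.0573, limma).

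**Figure D2:**
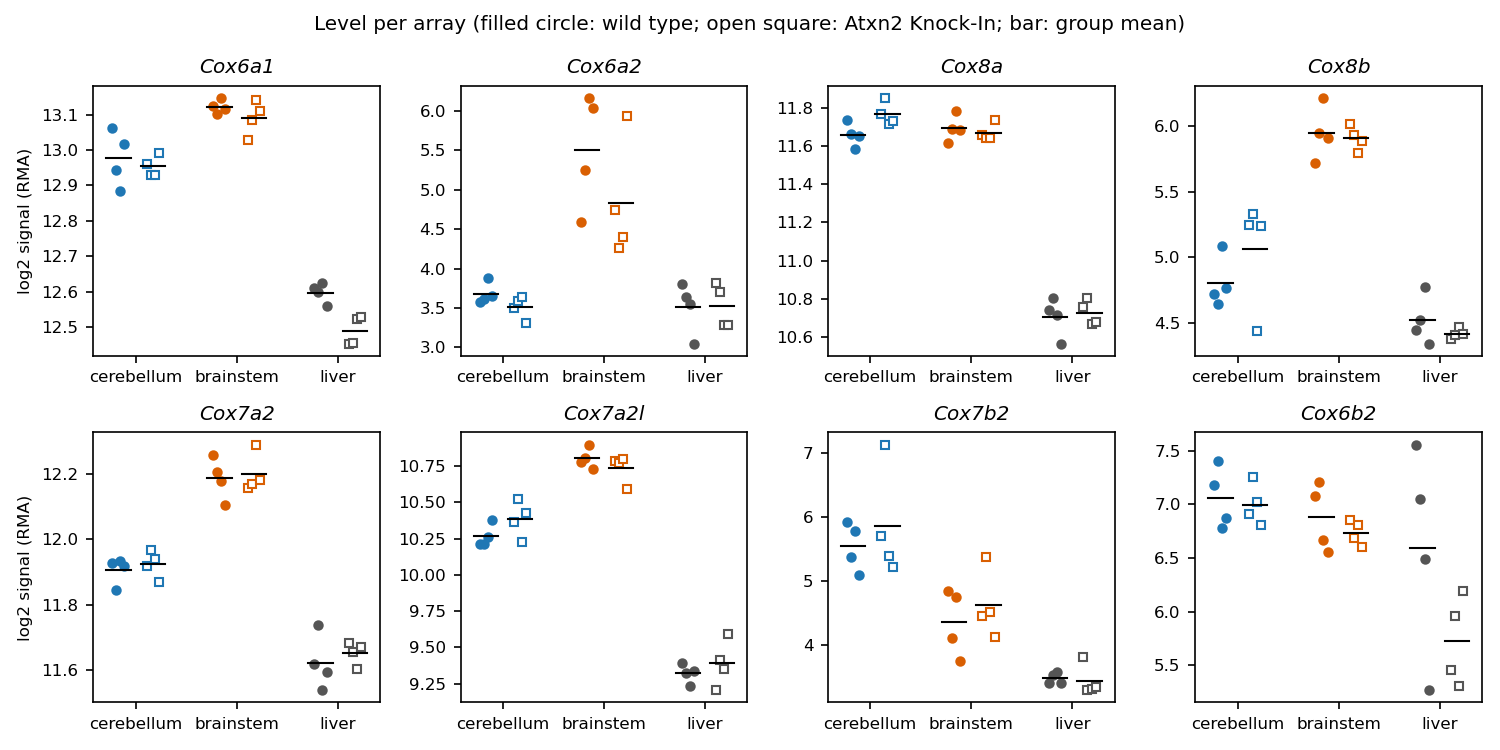
Log2 signal on each array for 8 complex IV genes in the 3 tissues, with wild type as filled circles, Atxn2 Knock-In as open squares and group means as bars; each panel has its own vertical axis. Cox8a and Cox7a2l are lower in liver than in both brain regions, Cox6a2 and Cox8b stand out in brainstem, and Cox7b2 is highest in cerebellum, with Knock-In replicate 2 at 7.13.

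Among complex V genes, Atp5o, the subunit that ties the catalytic head to the peripheral stalk, had the largest difference to liver. It read 11.62, 11.61, 11.70 and 11.55 in wild type cerebellum. The brainstem arrays read 11.80, 11.86, 11.86 and 11.79, and the liver arrays 10.91, 10.89, 10.73 and 10.59. All liver arrays lay below all brain arrays. The differences to liver were 0.84 and 1.04 (adjusted p = 4.59e-10 and 7.71e-12, limma), but a second Atp5o probe set was called in the opposite direction in cerebellum.
The small membrane subunits Atp5md and Atp5mpl were higher in brainstem than in liver by 0.89 and 0.66 (adjusted p = 1.31e-10 and 9.61e-08 in limma). Of the central stalk, Atp5e and Atp5d differed by -0.42 and -0.37 in cerebellum (adjusted p = 8.73e-06 and 2.74e-05, limma) and were not called in brainstem, while Atp5c1 stood at 0.11 in cerebellum, not called. Among the Knock-In arrays Atp5d stood at -0.11 in cerebellum, not called. Atp5g1 in cerebellum also differed by -0.39 (adjusted p = 4.83e-05, limma), but its dim second probe set was called in the opposite direction. In all, 18 of the 42 genes had several probe sets, and for 3 of them in cerebellum (Atp5g1, Atp5o, Uqcr10) and 2 in brainstem (Atp5d, Cox5b) a probe set was called against the direction of the brightest.

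Between the brain regions, the members read lower in cerebellum than in brainstem on the deposited scale. Of the 67 probe sets 50 were called, 3 higher and 47 lower in cerebellum, where 47% of all probe sets were called (18.8% higher, 28.2% lower). All 8 complex III genes and all 17 complex V genes had lower means in cerebellum, as did 13 of 17 complex IV genes. The medians were -0.21 for complex III, -0.27 for complex IV and -0.25 for complex V, beside -0.07 over all probe sets. With quantile normalization over all arrays this shift was no longer seen, with medians of 0.025, 0.0013 and -0.014, and 25 calls, 5 higher and 20 lower.
The calls of at least 0.5 by brightest probe set were Cox6a2, Cox8b and Cox7b2, given above, and 4 brighter genes. Atp5md differed by -0.71 in cerebellum minus brainstem, Uqcrq by -0.61, Uqcr10 by -0.60 and Cox7a2l by -0.54, with limma's adjusted p between 2.73e-08 and 1.14e-05. None of these 4 overlapped between the regions, and each kept its direction under both other scalings. Several marker lists averaged higher in wild type brainstem than in wild type cerebellum as well. Pericyte and smooth muscle markers stood at 7.05 to 7.27 against 6.12 to 6.42. Microglia and macrophage markers stood at 7.61 to 7.97 against 6.37 to 6.67, and neuron markers were also higher without overlap. Granule and Purkinje cell markers were lower in brainstem, at 7.41 to 8.18 against 11.4 to 11.6, as were parvalbumin cell markers. The part of cell makeup was not tested.

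To ask whether isoforms of one subunit shifted against each other, the difference between their brightest probe sets within an array was compared between tissues, for 10 pairs and 3 tissue comparisons. The size of such a difference within a tissue is not read, since probe sets bind unequally. In wild type mice 15 of the 30 contrasts did not overlap between tissues. Each of these 15 reached the smallest p that 4 against 4 arrays allow, 0.0286 (exact permutation test, two-sided). After Benjamini-Hochberg adjustment over the 30 it became 0.0571, so that 0 passed. The test takes the arrays as unpaired, although the replicate number pairs cerebellum and brainstem samples. A two-sided sign-flip test on 4 pairs can give no p below 0.125, and no paired p is given here. In Knock-In mice 18 contrasts did not overlap, and passed with adjusted p = 0.0476 (exact permutation test). Every contrast without overlap has the same p, so its adjusted p depends only on how many there are. The 18 against 0 is therefore no measure of a difference between the genotypes. Of the 30, 29 had the same sign in both genotypes, and 11 were without overlap in both.
Cox8a minus Cox8b, as measured signal, differed from liver by 0.67 in wild type cerebellum and by -0.43 in brainstem, and cerebellum minus brainstem was 1.10. The Knock-In values were 0.39, -0.55 and 0.94, and none of these 6 contrasts overlapped. With quantile normalization over all arrays the brainstem value turned to 0.15. Cox8b can be at background in cerebellum and liver, so that the cerebellum value against liver then follows Cox8a alone.
Cox6a1 minus Cox6a2 differed by -1.47 in brainstem minus liver and by 1.68 in cerebellum minus brainstem in wild type mice. In Knock-In mice the values were -0.72, with overlap, and 1.19, without. Cox6a2 can be at background in liver and cerebellum, so that these sizes are no exact measure of the isoform balance. Cox7a2 minus Cox7a2l differed from liver by -0.66 in cerebellum and -0.92 in brainstem, with -0.72 and -0.80 in Knock-In mice.

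The genes for the c subunit of ATP synthase also differed in their balance, read by their brightest probe sets. Atp5g1 minus Atp5g3 differed from liver by -0.66 in wild type cerebellum and -0.39 in brainstem, and by -0.50 and -0.37 in Knock-In mice. Atp5g3 minus Atp5g2 was higher than in liver by 0.47 and 0.40 in wild type and by 0.47 and 0.45 in Knock-In mice. None of these 8 contrasts overlapped. Read as the mean of all its probe sets, Atp5g1 minus Atp5g3 turned to 0.51 and 0.64 in wild type mice. The second Atp5g1 probe set stood at 1.95 in cerebellum minus liver, against -0.39 for the brightest, and in brainstem minus liver it also stood above the 0.044 of the brightest.

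**Figure D3:**
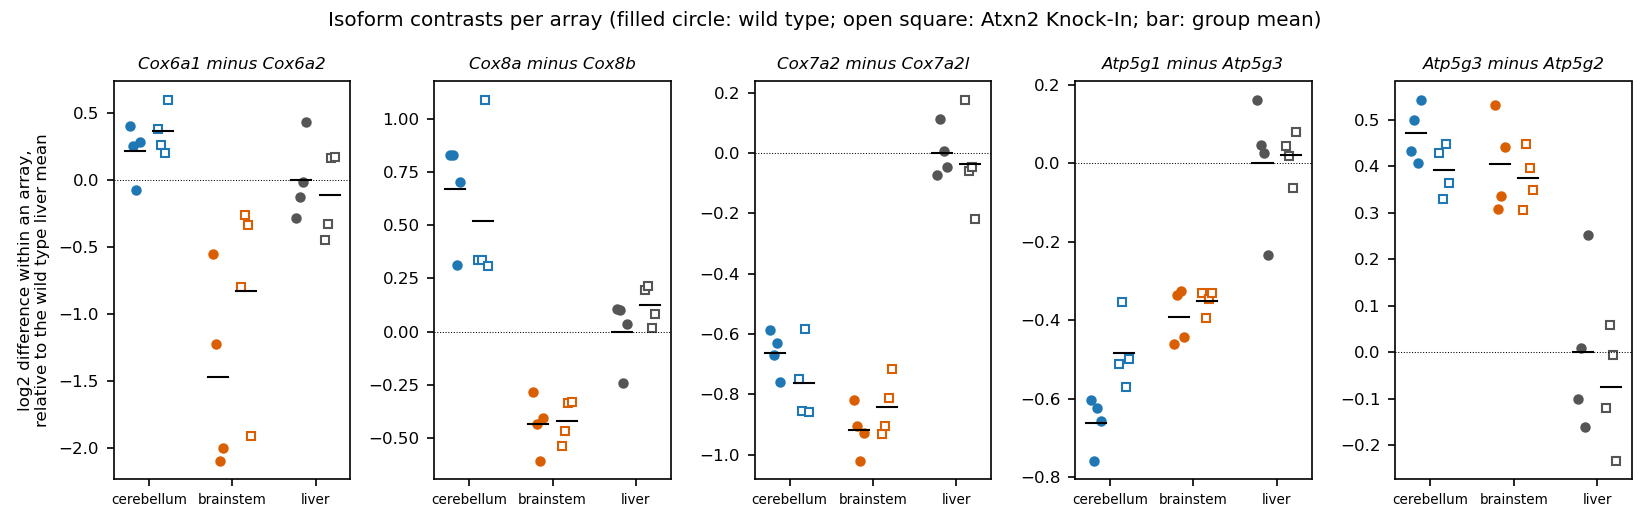
Log2 difference between 2 isoforms on each array, set relative to the wild type liver mean of that pair, in the 3 tissues, with wild type as filled circles, Atxn2 Knock-In as open squares and group means as bars; each panel has its own vertical axis. Cox8a minus Cox8b lies above liver in cerebellum (wild type mean 0.67) and below it in brainstem (-0.43), and Atp5g3 minus Atp5g2 lies above liver in both brain regions.

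Of 52 other genes listed for the pathway, 45 were measured. In wild type cerebellum against liver 23 were called higher and 13 lower, in brainstem against liver 27 and 9, and in cerebellum against brainstem 5 and 21, by limma over all probe sets. With 36 of 45 called against liver in either region and 26 between the regions, beside 81.8%, 80.8% and 47% of all probe sets, the counts against liver were near the general share. Among those higher in brain were Atpif1, the inhibitor of ATP synthase (1.79 in cerebellum and 2.63 in brainstem), Atpaf1, which assembles its catalytic head (2.91 and 4.01), and Ttc19, a complex III assembly factor (1.87 and 3.04). Of the regulators listed, Nrf1 (2.12 and 1.37) and Ppargc1b (2.37 and 1.23) were higher too, and values of the others are not given here. Lower in brain were the complex IV assembly factor Coa7 (-1.54 and -0.29) and the complex II subunit Sdhb (-0.74 and -0.19). Cytochrome c itself, Cycs, was higher by 0.54 and 0.98.

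Between genotypes, no member was called in any tissue. By limma, 0 of the 67 probe sets passed in cerebellum, where 0.0444% of all probe sets were called. The count was also 0 for brainstem (0.0155% of all probe sets) and 0 for liver (0.147%). At an unadjusted p under 0.05 there were 4, 1 and 3 of 67, beside 3.59%, 4.17% and 8.61% of all probe sets. The medians over the 42 genes were 0.050, -0.024 and -0.024, beside -0.0068, -0.010 and -0.0097 over all probe sets. The 95% interval of a gene had a median half-width of 0.15, and it lay within 0.5 of 0 for 38, 39 and 39 of the 42 genes, in the same order of tissues.

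**Figure D4:**
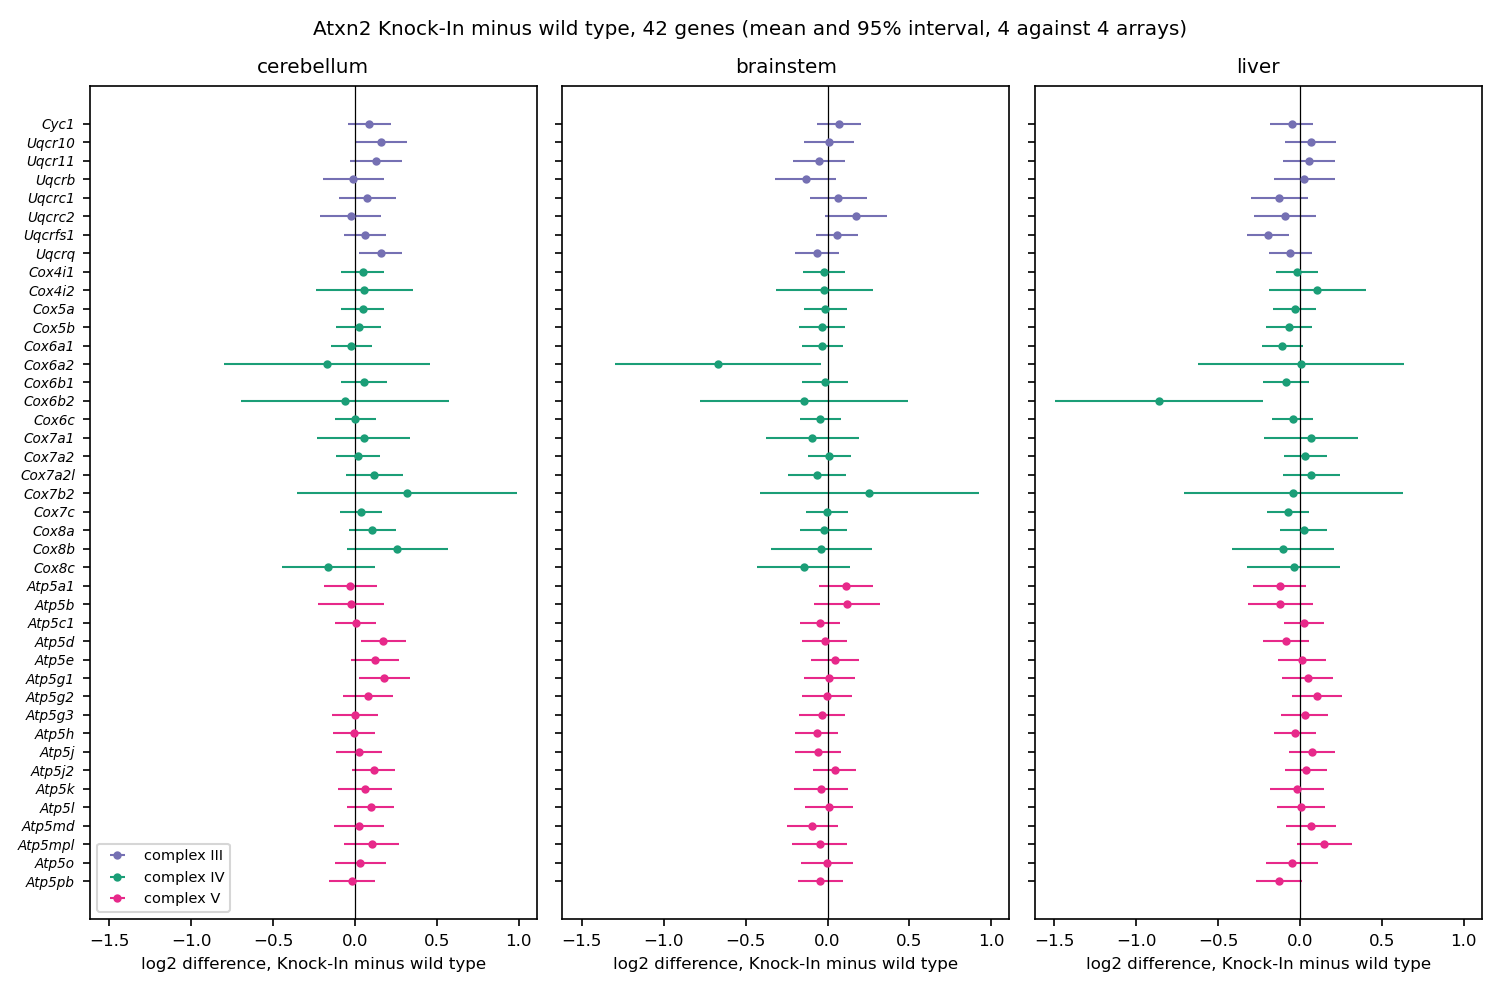
Log2 difference Atxn2 Knock-In minus wild type for the brightest probe set of the 42 genes in each tissue; points are means of 4 against 4 arrays, bars are 95% intervals from limma, and colours mark the complex. Most points lie close to 0; Cox6b2 in liver (-0.86) and Cox6a2 in brainstem (-0.67) lie furthest from it, with unadjusted intervals that leave out 0, and none was called after adjustment.

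In cerebellum the differences leaned to the positive side. Of the 67 probe sets 51 were above 0, against 47.6% of all probe sets, and 9 did not overlap between genotypes, all of them higher in Knock-In mice, where 3.94% of all probe sets did not overlap and 1.71% were higher without overlap. The brightest probe sets among them belonged to Uqcrq, Uqcr10 and Uqcrfs1 of complex III and to Atp5d, Atp5g1, Atp5e and Atp5mpl of complex V. All probe sets share the same arrays, so these counts are not of independent samples. On single arrays the complex III median was 10.62 to 10.67 in wild type and 10.71 to 10.83 in Knock-In mice, without overlap. For complex IV it was 10.53 to 10.64 and 10.60 to 10.71, with overlap. For complex V it was 11.55 to 11.70 and 11.55 to 11.66, also with overlap.
Atp5d, of the central stalk, read 10.99, 10.97, 10.93 and 11.07 in wild type and 11.13, 11.18, 11.13 and 11.21 in Knock-In cerebellum. Every Knock-In array lay above every wild type array. The difference was 0.17 (SE 0.067), with an unadjusted p of 0.0174 and an adjusted p of 1 in limma, and p = 0.0286 in the exact permutation test, two-sided, the smallest it can give.
Uqcrq differed by 0.16, Atp5g1 by 0.18 and Uqcr10 by 0.16, likewise without overlap, and their adjusted p in limma was 1. Cox8a differed by 0.13 and Atp5j2 by 0.13 in their second probe sets, the latter with overlap.
In the same arrays, 5 choroid plexus markers averaged 5.87 to 8.09 in wild type and 7.49 to 8.17 in Knock-In mice. The 5 granule and Purkinje cell markers averaged 11.4 to 11.6 and 11.2 to 11.5. Their part in the small differences of the members was not tested.

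In brainstem 24 of the 67 probe sets were above 0, against 46.2% of all, and 1 did not overlap, against 3.7% (1.57% higher). That was Uqcrfs1, at 10.68, 10.66, 10.68 and 10.65 in wild type and 10.75, 10.71, 10.71 and 10.72 in Knock-In mice, a difference of 0.06. The lowest p belonged to Cox6a2, at -0.67 (unadjusted p = 0.0376, adjusted p = 1, limma), with overlap of the groups given above and p = 0.229 in the exact permutation test. Uqcrc2 stood at 0.17, Uqcrb at -0.13, Atp5a1 at 0.11, Atp5md at -0.09 and the second Atp5g1 probe set at -0.21, with limma's adjusted p = 1 for each.

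In liver 33 of the 67 probe sets were above 0, against 47.3% of all, and 3 did not overlap, all lower in Knock-In mice, against 2.76% without overlap and 1.81% lower without overlap among all probe sets. Uqcrfs1 read 11.13, 11.10, 11.03 and 10.91 in wild type and 10.88, 10.90, 10.79 and 10.81 in Knock-In liver. Every Knock-In array lay below every wild type array, by a mean of -0.20 (SE 0.062, unadjusted p = 0.0044, adjusted p = 0.293, limma). In brainstem and in cerebellum the Knock-In arrays of Uqcrfs1 lay above the wild type arrays, and the difference between the genotype effects was 0.26 for either brain region minus liver, with an adjusted p of 1 for cerebellum and of 0.953 for brainstem in limma. Both of these share the liver arrays.
The other probe sets without overlap were both of Cox6a1, at -0.18 and -0.11 (adjusted p = 0.416 and 0.654, limma). Cox6b2 read 7.55, 7.05, 6.49 and 5.27 in wild type and 5.46, 5.96, 5.31 and 6.20 in Knock-In liver. The groups overlapped through wild type replicate 4. The difference was -0.86 (SE 0.31, adjusted p = 0.382, limma). Without that array it was -1.30 with an adjusted p of 0.00912, and without wild type replicate 1, the array that stood apart, it was -0.54 with an adjusted p of 0.263. Atp5pb stood at -0.13, Atp5mpl at 0.15 and a dim Uqcrq probe set at 0.26, with limma's adjusted p between 0.62 and 0.684.

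The genotype effect was called as different between tissues for 0 of the 67 probe sets in each of the 3 pairs of tissues by limma, where 0.00222%, 0.00888% and 0.00888% of all probe sets were called for cerebellum minus brainstem, cerebellum minus liver and brainstem minus liver. At an unadjusted p under 0.05 there were 1, 4 and 4, beside 1.68%, 3.98% and 4.69% of all probe sets. Of the 45 other pathway genes, 0 were called between genotypes in any tissue, and 1, 0 and 4 had an unadjusted p under 0.05 in the order of tissues above. The lowest p in liver was that of the complex II subunit Sdha, at -0.26 (adjusted p = 0.272, limma).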

How the data were processed

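The deposited values are on the log2 scale and were made by the authors with RMA, which corrects the background, aligns the arrays and summarises the probes of a probe set. R 2.7.0 is named in the notes of the submitters. The sources used here do not say whether all arrays were run together, and array medians were lower in liver, so differences between tissues depend on the scaling. Groups came from the sample labels, and the age from the paper. Labels and paper differ on the amplification kit. Because the labels do not name the animals, p-values measure the spread between samples, and the number of arrays limits the precision.

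Of 45141 probe sets, 104 controls were left out and 45037 were tested. The platform annotation gave 28898 of them 1 gene, 551 several and 15588 none. limma 3.58.1 in R 4.3.3 fitted 1 mean per tissue and genotype over 24 arrays, with Benjamini-Hochberg adjustment within a comparison and calls at an adjusted p under 0.05. A gene was read by its brightest probe set. Isoform contrasts and single genes were compared by exact permutation tests, two-sided. Named genes were those of the isoform pairs, the 6 of lowest p per tissue between genotypes, the 3 largest called differences to liver per complex and direction, and calls of at least 0.5 between the brain regions. Members, lists and rules were chosen with earlier results of these data known. Cox4i1, Cox6a1 in liver and Uqcrfs1 in the brain regions were named after their values were seen. No rule set which of the other pathway genes were named between tissues.

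In simulated data, changes of 0.5 and 1 were found for 32.4% and 90.2% of changed probe sets for cerebellum, 44.7% and 90.3% for brainstem, 31.6% and 91% for liver. The changed probe sets were drawn at random from all 45037, so these shares are not those of the members. The median SE over the 42 genes was 0.073 in the genotype comparisons. Samples with the same genotype and number deviated together in cerebellum and brainstem (r of 0.224 to 0.375 in 8 of 8 pairs), so the number pairs these samples. Alternatives were each tissue alone, replicate blocks, array weights, other scalings, a filter on dim probe sets, probe set means and leaving out single arrays.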

Additional observations from a re-analysis of the deposited data

Results flagged for a closer look

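Single arrays stood away from the other 3 of their group for 11 of 180 combinations of gene and group, counting 30 named genes in 6 groups; chance gives about 5%. The widest gaps were those of dim genes. Cox8b read 4.44 on Knock-In cerebellum replicate 3, beside 5.24 to 5.33 on the other arrays. On Knock-In liver replicate 1, Cox7b2 stood at 3.81, with the rest at 3.29 to 3.34. Cox7a1 read 6.40 on Knock-In cerebellum replicate 2, beside 5.96 to 6.02 on the other arrays. For the bright genes the gaps were small. Atp5g1 read 11.42 on Knock-In liver replicate 2, beside 11.29 to 11.31 on the other arrays. On wild type brainstem replicate 3, Atp5mpl stood at 10.93, with the rest at 10.83 to 10.84. Atp5mpl read 10.62 on Knock-In cerebellum replicate 2, beside 10.48 on the other arrays. On Knock-In cerebellum replicate 3, Atp5pb stood at 11.11, with the rest at 11.25 to 11.28. Cox7a2 read 11.85 on wild type cerebellum replicate 2, beside 11.92 to 11.93 on the other arrays. On Knock-In brainstem replicate 4, Cox7a2l stood at 10.60, with the rest at 10.77 to 10.80. Uqcrb read 9.58 on wild type cerebellum replicate 4, beside 9.41 to 9.43 on the other arrays. On Knock-In brainstem replicate 2, Uqcrc1 stood at 10.73, with the rest at 10.62 to 10.64.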

How the results depend on the processing

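The count of called members stayed within 1.5 times under every alternative run, except where stated here. With quantile normalization over all arrays 25 probe sets were called in cerebellum against brainstem in place of 50, and the medians of complexes IV and V in cerebellum minus liver were 0.45 and 0.24, those of complexes III and V in brainstem minus liver -0.35 and 0.31, and those of complexes III, IV and V in cerebellum minus brainstem 0.025, 0.0013 and -0.014. With arrays centred on their median the 3 complexes stood at -0.64, -0.015 and -0.19 in cerebellum minus liver, at -0.52, 0.17 and 0.015 in brainstem minus liver, and at -0.12, -0.18 and -0.15 in cerebellum minus brainstem. With all probe sets in place of the brightest, complex III had medians of -0.098 and 0.029 against liver in cerebellum and brainstem, and of -0.031 for the genotype effect in brainstem minus liver. Leaving out single arrays gave 0 to 1 calls between genotypes in liver, the 1 being Cox6b2 without wild type replicate 4, and a median for complex IV of 0.27 to 0.37 in cerebellum minus liver, with the highest value without liver wild type replicate 3. The exact permutation test passed 18 isoform contrasts with the Knock-In arrays in place of 0, which follows from 18 contrasts without overlap in place of 15.

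Of the single values named, 6 turned sign: Uqcrc1 in brainstem minus liver (-0.19 with quantile normalization, -0.23 with centring), Uqcrc2 in the same comparison (-0.014 with centring), Cox8a minus Cox8b in brainstem minus liver (0.15 with quantile normalization), and Atp5g1 minus Atp5g3 in cerebellum and brainstem minus liver (0.51 and 0.64 with the mean of the probe sets). With the replicate block the counts against liver were 49 in cerebellum and 55 in brainstem, and 47 in cerebellum against brainstem; in the genotype comparisons all 3 tissues had 0 with the number as a block and 0 with a random block across tissues. The block changed no call of a member between genotypes. In wild type mice, 17 of the 30 isoform contrasts had the same sign within all 4 numbers. The 15 contrasts without overlap have this by construction, so the count is no separate support for them. Same-numbered wild type and Knock-In samples correlated from -0.299 to 0.214, and those of liver and a brain region from 0.0417 to 0.285, below 0.1 in some pairs, so the numbers were not taken to pair these, although each liver sample's and brain sample's best match was its own number (8 of 8 in both comparisons). Over all probe sets, the calls between genotypes in cerebellum, brainstem and liver numbered 20, 7 and 66, with array weights 32, 25 and 231, with each tissue alone 10, 6 and 0, and with the number as a block 13, 5 and 28, while the members stayed at 0. The leave-one-out fits of the tissue differences in genotype effect were added after seeing the data and gave 0 calls each. Small differences limit the reading: in simulated data, with changed probe sets drawn from all 45037, a change of 0.2 was not recovered.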
